A study of Mus musculus with 48 samples.

Results

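The comparison of twice-a-night (TAN) with ad-lib feeding at the time label 4AM rested on 8 of the 48 sWAT libraries of the series, the 4 TAN and the 4 ad-lib libraries whose labels and count-table columns carry that time. sWAT is subcutaneous white adipose tissue, here the inguinal depot (iWAT in the labels). All 8 came from C57BL/6 mice (C57BL/6J in the study's methods) aged 8 months, which the methods give as male. TAN mice had food in a first window (9 to 11 p.m.) and in a second (5 to 7 a.m.), both within a dark phase from 8 p.m. to 8 a.m., for 6 months, and ad-lib mice had food at all times. The study counts mice as its replicates, and the labels number the libraries of a group without naming the animals. By the count-table label the tissue was taken in the dark phase, between the meals. The supplementary FPKM table of the study gives other times: over the 979 genes held here, each of the 8 libraries was closest to the column of the same animal name at 4PM, 12 h apart and in the light phase, and all 48 libraries were shifted in the same way. The time label 4AM is that of the count table throughout, and the contrast of TAN with ad-lib holds the same 8 libraries under both labellings.

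The core clock is a loop in which ARNTL and CLOCK activate the genes of their own repressors, the PER, CRY and REV-ERB proteins, the last of which are encoded by Nr1d1 and Nr1d2. In white fat the clock and feeding both act on de novo lipogenesis, the making of fatty acids from sugar through citrate, acetyl-CoA and malonyl-CoA. Lipogenic genes are known to be high after a carbohydrate meal and low in a fast.

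No gene differed between TAN and ad-lib libraries at the adjusted threshold. Of 19977 genes tested, 0 (0%) passed both an adjusted p of 0.05 and a log2 fold change of 1 in size by the quasi-likelihood test of edgeR (Benjamini-Hochberg). The smallest adjusted p, 0.0577, belonged to Nr1d1, which was lower in TAN libraries, and the next smallest was 0.9995. At an unadjusted p under 0.05 without a limit on the fold change there were 527 genes, 180 higher (0.901% of all tested) and 347 lower (1.74%) in TAN libraries. All 4 TAN libraries lay above all 4 ad-lib libraries for 382 genes (1.91%) and below them for 235 (1.18%). The 95% interval of the log2 fold change stayed within -1 to 1 for 7608 genes (38.1%), which limits any difference of these genes to less than 2-fold, and the others were not bounded so closely. Single genes below are therefore described by their values and unadjusted p, as candidates that did not pass the adjustment.

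The ad-lib libraries were less alike than the TAN libraries. The median over genes of the SD of log2 CPM (counts scaled to a common library size by TMM) was 0.653 in the ad-lib group and 0.283 in the TAN group, the lowest of the 12 groups of the series, and 83.7% of genes had the larger SD in the ad-lib group. Total counts were between 17612576 and 22877805, and a count of 3, the limit that a count of 0 allows, was worth between 0.131 and 0.17 CPM. Ad-lib library 3 stood apart, with correlations of 0.847 to 0.908 with the other 7 libraries. Its 10 skeletal muscle markers summed to 6563 CPM, against 37.2 to 372 CPM in the others, and its 10 B and T cell markers to 9.74 CPM, against 733 to 2249 CPM. Ad-lib library 1 differed from the rest of its group in clock genes. Of the 51 genes named by rule with an unadjusted p under 0.05, 14 lost it without ad-lib library 1 and 23 without library 3, and of 42 others 1 and 8 gained it; the values without these libraries are given beside the genes and lists they moved most. Over all genes, 527 of 19977 had an unadjusted p under 0.05 with all libraries. The counts were 1300 of 20638 without ad-lib library 1, 773 of 20635 without library 3 and 2202 of 21748 without both. List counts without these libraries are therefore read beside larger totals. The part that cell makeup had in the results was not tested. In such bulk RNA, fewer cells of a type and less RNA per cell cannot be told apart.

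The 8 adipocyte markers summed to between 24033 and 48449 CPM in the 8 libraries, so that the labelled tissue carried its defining markers in each. None of the 12 marker sums differed between diets by a two-sided exact permutation test over the 70 splits, whose smallest possible p is 0.0286; the smallest p was 0.114 for adipose progenitor markers, with an adjusted p of 0.771 over the 12.

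**Figure D1:**
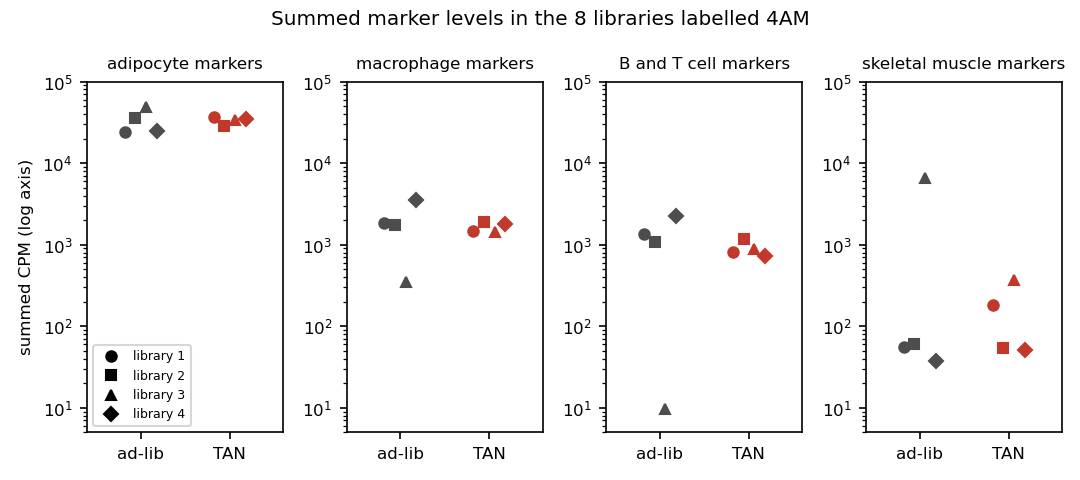
Summed CPM of adipocyte, macrophage, B and T cell and skeletal muscle markers in each of the 8 libraries labelled 4AM, on a log axis, with a symbol for each library number. Ad-lib library 3 lies at 6563 CPM for muscle and 9.74 CPM for B and T cell markers, away from the other 7.

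The smallest p of all genes was in the negative limb of the clock. Nr1d1, which encodes the repressor REV-ERBα, was at 54.5, 7.44, 69.9 and 4.62 CPM in ad-lib libraries 1 to 4 and at 4.52, 4.71, 4.09 and 2.88 CPM in TAN libraries 1 to 4. Ad-lib libraries 1 and 3 were high, library 2 was slightly above and library 4 within the range of the TAN libraries, so that the groups overlapped. The test gave a log2 fold change of -3.07 (SE 0.56, 95% interval -4.21 to -1.93, unadjusted p = 2.89e-06), with an adjusted p of 0.0577. That fit shares its estimate of spread over all 48 libraries. A separate edgeR fit of the 8 libraries gave -3.07 with an unadjusted p of 0.00388 and an adjusted p of 0.969. When each library was left out in turn the log2 fold change was between -3.46 and -2.45, with adjusted p from 0.00129 (without ad-lib library 4) and 0.00428 (without ad-lib library 2) to 1 (without ad-lib library 3), and it was 0.501 without ad-lib library 1. Without both ad-lib libraries 1 and 3 the log2 fold change was -0.57 (unadjusted p = 0.244). The difference in Nr1d1 thus rested on 2 of the 4 ad-lib libraries.

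Nr1d2, which encodes the related REV-ERBβ, was at 204, 54.0, 91.6 and 57.0 CPM in ad-lib and at 49.3, 53.9, 51.1 and 49.3 CPM in TAN libraries. The TAN libraries were nearly alike and all lay below the ad-lib libraries, of which library 1 was by far the highest; the log2 fold change was -0.997 (SE 0.29, unadjusted p = 0.00133), -0.42 (unadjusted p = 0.114) without ad-lib library 1 and -0.12 without libraries 1 and 3. Dbp, an output transcription factor driven directly by ARNTL and CLOCK, was at 69.1, 13.3, 10.3 and 16.8 CPM in ad-lib and at 6.61, 12.3, 7.33 and 13.5 CPM in TAN libraries. Ad-lib library 1 alone was high, and leaving it out brought the log2 fold change from -1.46 (SE 0.50, unadjusted p = 0.00592) to -0.45. Per3, a member of the Period family, was at 85.5 CPM in the same library, against 7.93 to 24.1 CPM in the other ad-lib libraries and 25.4 to 28.7 CPM in TAN libraries, and without that library its log2 fold change turned from -0.35 to 0.62 (unadjusted p = 0.247). Tef, a PAR bZIP factor like Dbp, was at 238 CPM there, against 87.8 to 126 CPM and 109 to 121 CPM. Ad-lib library 1 therefore stood above the other ad-lib libraries in Nr1d2, Dbp, Per3 and Tef.

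No difference was detectable in the positive limb. Arntl was at 13.0, 29.0, 30.9 and 26.9 CPM in ad-lib and at 25.3, 28.9, 20.8 and 27.6 CPM in TAN libraries, with a log2 fold change of 0.04 (SE 0.36, 95% interval -0.68 to 0.76, unadjusted p = 0.912). Its lowest value was in ad-lib library 1. Clock had a log2 fold change of 0.04 (95% interval -0.51 to 0.59), and Cry1, which encodes a repressor of ARNTL and CLOCK, one of 0.13 (-0.39 to 0.65); both intervals stay within 2-fold. Per1, with 0.30 (-0.72 to 1.32), and Per2, with 0.52 (-0.65 to 1.69), were not bounded so closely. Of 17 core clock genes, 0 were higher and 2 were lower (Nr1d1 and Nr1d2) at an unadjusted p under 0.05, 8 were bounded within 2-fold, and the median log2 fold change was 0.04, against 0.00 over all genes tested. Over all genes tested, 0.901% were higher and 1.74% lower at that threshold, and 38.1% were bounded within 2-fold. Of 8 clock output transcription factors 1 was lower (Dbp) and 0 higher. Without ad-lib library 1 there were 0 core clock genes higher and 1 lower, and 0 output factors lower.

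**Figure D2:**
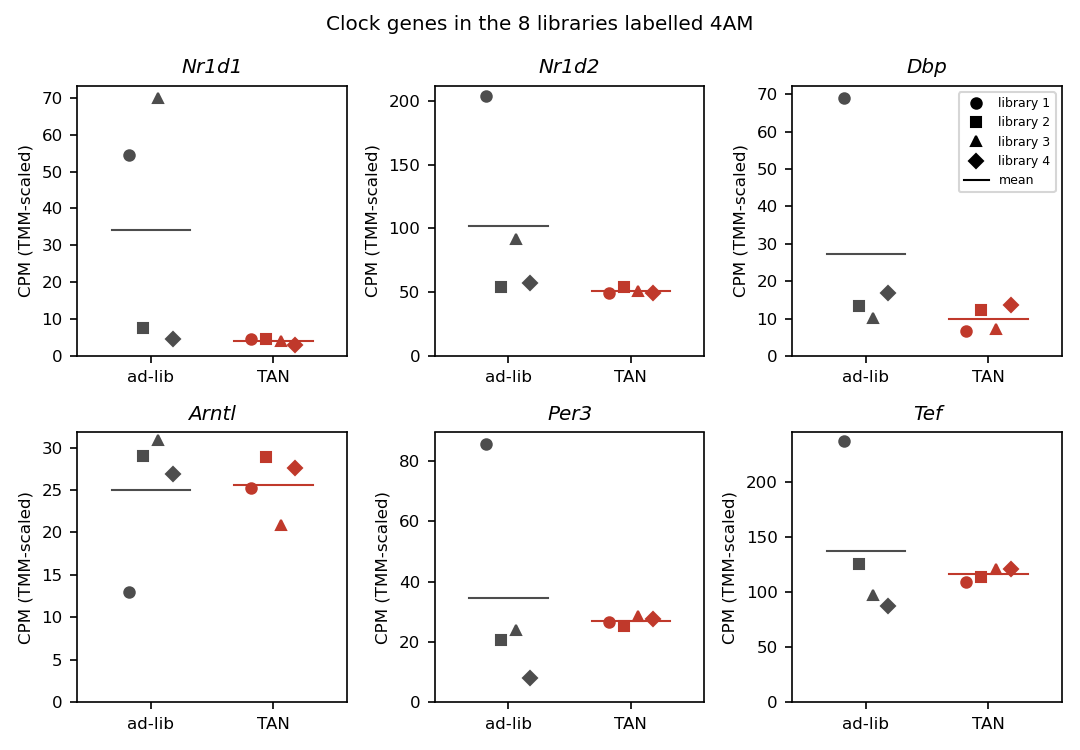
CPM of Nr1d1, Nr1d2, Dbp, Arntl, Per3 and Tef in the 4 ad-lib and 4 TAN libraries labelled 4AM; symbols are library numbers and lines the group means, from 0. Ad-lib library 1 is highest for Nr1d2, Dbp, Per3 and Tef and lowest for Arntl, and the TAN libraries lie close together for Nr1d1 and Nr1d2.

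The levels over the day place these libraries. By the count-table labels, Dbp in ad-lib mice was highest at 4PM (102 ± 19.9 CPM, SD, n = 4) and lowest at 8AM (8.37 ± 4.99 CPM), and Arntl was highest at 8AM (32.3 ± 9.59 CPM) and lowest at 4PM (9.93 ± 2.96 CPM). Dbp is known to peak late in the light phase and Arntl near its start in mouse peripheral tissues. Nr1d1 in ad-lib mice ran from 3.63 ± 1.09 CPM at 12AM through 34.1 ± 33.0 CPM at 4AM to 16.4 ± 1.62 CPM at 8AM and 92.3 ± 26.5 CPM at 4PM. In TAN mice it was 6.71 ± 3.65 CPM at 12AM, 4.05 ± 0.820 CPM at 4AM and 138 ± 75.6 CPM at 4PM, so that the TAN libraries labelled 4AM were at the low point of the day. The Nr1d1 levels of ad-lib libraries 1 and 3 lay above all 4 ad-lib libraries of 12AM (2.05 to 4.57 CPM) and of 8AM (14.9 to 18.3 CPM), and library 3 was within the range of 4PM (65.5 to 118 CPM).

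Ad-lib library 1 was within the 4PM range of its diet for Nr1d2 (160.0 to 269 CPM), Per3 (67.1 to 93.8 CPM), Tef (188 to 308 CPM) and Arntl (6.64 to 13.4 CPM), and below it for Dbp (85.8 to 127 CPM) and Nr1d1. Ad-lib library 3 was not like that group: its Dbp, Nr1d2 and Per3 were below, and its Arntl above, the 4PM ranges. What set these 2 libraries apart was not tested. Nr1d1 was also the 1 gene (0.00501% of those tested) whose TAN effect at 4AM differed from the mean effect at the other 5 time points, by -3.55 on the log2 scale (adjusted p = 0.0175 by edgeR), and it was no longer called without ad-lib library 1 or 3 or any TAN library.

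**Figure D3:**
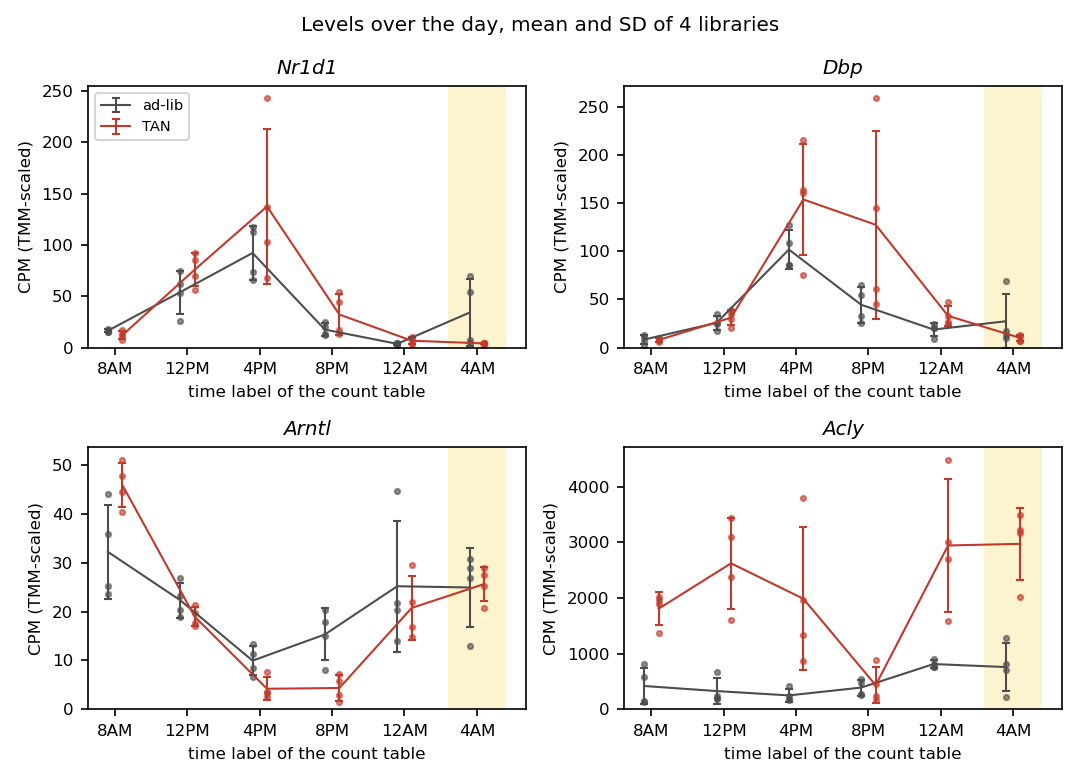
CPM of Nr1d1, Dbp, Arntl and Acly at the 6 time labels of the count table in ad-lib and TAN mice; small points are libraries, and lines join means with SD bars (n = 4, cut at 0). The shaded label is 4AM, where TAN Nr1d1 is at 4.05 CPM and ad-lib Nr1d1 spreads from 4.62 to 69.9 CPM.

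Promoters of Nr1d1, Nr1d2 and the lipogenic genes Acly, Acacb and Elovl6 are shown because these genes had the smallest p in the core clock and lipogenesis lists. Each runs from 250 bases before to 50 bases after the RefSeq start, on GRCm38.p6 and in the direction of the gene. Capitals mark AGGTCA on either strand (TGACCT when read on the strand shown), the half-site that REV-ERB proteins share with other nuclear receptors.
Nr1d1, chr11:98775328-98775627, minus strand: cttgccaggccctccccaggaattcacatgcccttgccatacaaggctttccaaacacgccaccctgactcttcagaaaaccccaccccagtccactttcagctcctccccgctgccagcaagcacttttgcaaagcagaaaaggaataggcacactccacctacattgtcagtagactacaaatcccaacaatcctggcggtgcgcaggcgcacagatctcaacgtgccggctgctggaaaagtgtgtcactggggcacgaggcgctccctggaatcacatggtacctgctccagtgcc
Nr1d2, chr14:18239057-18239356, minus strand: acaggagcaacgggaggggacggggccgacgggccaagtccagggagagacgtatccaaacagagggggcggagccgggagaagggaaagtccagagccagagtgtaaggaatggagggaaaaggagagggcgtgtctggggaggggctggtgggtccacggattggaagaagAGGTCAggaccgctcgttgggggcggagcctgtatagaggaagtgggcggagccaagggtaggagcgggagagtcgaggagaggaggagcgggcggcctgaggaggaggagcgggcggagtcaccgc
Acly, chr11:100527951-100528250, minus strand: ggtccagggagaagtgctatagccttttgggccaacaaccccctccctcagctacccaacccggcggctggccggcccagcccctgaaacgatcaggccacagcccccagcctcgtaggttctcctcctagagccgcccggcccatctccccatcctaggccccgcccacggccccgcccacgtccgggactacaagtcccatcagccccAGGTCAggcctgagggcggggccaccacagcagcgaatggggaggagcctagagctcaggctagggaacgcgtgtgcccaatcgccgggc
Acacb, chr5:114165268-114165567, plus strand: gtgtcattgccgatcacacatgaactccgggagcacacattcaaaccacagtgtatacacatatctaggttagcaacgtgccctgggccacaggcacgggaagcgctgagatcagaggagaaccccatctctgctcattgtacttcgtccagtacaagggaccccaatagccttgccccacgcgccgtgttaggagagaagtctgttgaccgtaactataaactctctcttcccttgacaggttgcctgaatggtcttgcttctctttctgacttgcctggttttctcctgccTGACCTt
Elovl6, chr3:129532136-129532435, plus strand: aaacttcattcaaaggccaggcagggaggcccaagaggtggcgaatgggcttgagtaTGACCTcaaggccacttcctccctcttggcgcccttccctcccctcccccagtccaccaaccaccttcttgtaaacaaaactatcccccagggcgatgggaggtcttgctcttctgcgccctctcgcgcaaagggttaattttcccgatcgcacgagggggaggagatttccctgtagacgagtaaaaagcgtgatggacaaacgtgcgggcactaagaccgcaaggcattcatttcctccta
The 300-base windows of Nr1d2, Acly, Acacb and Elovl6 hold 1 such match each, and that of Nr1d1 holds 0. AGGTCA is in 16.3% of all 32851 RefSeq promoter windows, in 4 of 20 windows of the core clock genes (20.0%) and in 4 of 21 of the lipogenesis genes (19.0%), so that these windows hold it about as often as any. The E-box CACGTG is in 7.15% of all windows, in 4 of the 20 and in 3 of the 21, and the D-box TTATGTAA in 0.938%, in 1 and in 0. The Acacb window lies inside the span that the count table gives for the gene.

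Lipogenic genes mostly had higher values in TAN libraries, with the smallest p for Acacb and Acly and the largest fold change for Elovl6. Acly, ATP-citrate lyase, which splits citrate to acetyl-CoA, was at 226, 709, 1275 and 817 CPM in ad-lib and at 3170.2, 2024, 3487 and 3218 CPM in TAN libraries. All TAN libraries were above all ad-lib libraries, with a log2 fold change of 1.98 (SE 0.53, 95% interval 0.90 to 3.05, unadjusted p = 6.34e-04). Acacb, the acetyl-CoA carboxylase of the mitochondrial surface, whose malonyl-CoA blocks fatty acid entry, was at 35.3, 33.2, 57.8 and 55.0 CPM and 146, 139.8, 193 and 131 CPM. The lowest TAN library was more than 2-fold above the highest ad-lib library, with a log2 fold change of 1.75 (SE 0.46, 95% interval 0.82 to 2.67, unadjusted p = 4.55e-04). Acaca, the cytosolic carboxylase that feeds fatty acid synthesis, was at 369, 429, 1366 and 339 CPM and 1936, 1022, 1807 and 1584 CPM, where ad-lib library 3 overlapped the TAN libraries (log2 fold change 1.34, SE 0.58, unadjusted p = 0.0259). For Acaca the value was 2.07 (unadjusted p = 0.00207) without ad-lib library 3 and 1.14 (unadjusted p = 0.0817) without library 1, and 3 of the 8 fits with 1 library left out had an unadjusted p under 0.05.

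Elovl6, which lengthens palmitate to stearate, was at 58.7, 124, 342 and 128 CPM in ad-lib and at 845, 367, 840.5 and 687 CPM in TAN libraries. The groups did not overlap, and the test gave a log2 fold change of 2.07 (SE 0.64, 95% interval 0.78 to 3.36, unadjusted p = 0.00245). Slc2a5, the fructose transporter GLUT5, was at 2.61, 8.39, 12.8 and 13.6 CPM and 36.5, 22.0, 38.8 and 49.8 CPM, again with no overlap (log2 fold change 1.97, SE 0.73, unadjusted p = 0.00986). The ad-lib values of Acly, Elovl6 and Slc2a5 were lowest in library 1. With any 1 library left out, the log2 fold change ran from 1.66 to 2.35 for Acly, 1.60 to 1.89 for Acacb, 1.77 to 2.73 for Elovl6 and 1.65 to 2.20 for Slc2a5, with an unadjusted p under 0.05 in all 8 fits of each gene.

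Of the genes that supply and use these intermediates, Me1, the malic enzyme that makes NADPH, had a log2 fold change of 1.19 (SE 0.55, unadjusted p = 0.0360), Slc25a1, the mitochondrial citrate carrier, 1.07 (SE 0.46, unadjusted p = 0.0230), and Fads2, a desaturase of polyunsaturated fatty acids, 0.70 (SE 0.33, unadjusted p = 0.0403). Their groups overlapped, and without ad-lib library 1 the values were 0.89 (unadjusted p = 0.136), 0.78 (unadjusted p = 0.110) and 0.60 (unadjusted p = 0.106). Fasn, fatty acid synthase, was at 438, 1167, 3087 and 2225 CPM in ad-lib and at 3334, 2371, 4011 and 3904 CPM in TAN libraries, and its interval included 0 (0.98, 95% interval -0.11 to 2.06, unadjusted p = 0.0761), while without ad-lib library 3 it was 1.42 (unadjusted p = 0.0202). Scd1, stearoyl-CoA desaturase and the most abundant of these transcripts, ran from 11823 to 52028 CPM in ad-lib and from 20410.0 to 35689 CPM in TAN libraries, with 0.09 (95% interval -0.96 to 1.14). Among the transcription factors of the pathway, Mlxipl, which encodes ChREBP, had 0.99 (-0.17 to 2.15), and 1.43 (unadjusted p = 0.0292) without ad-lib library 3, and Srebf1 0.11 (-0.66 to 0.89).

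The estimates were thus uneven, with large differences for Acly, Acacb, Elovl6 and Slc2a5 and none detectable for Scd1 or Srebf1. The genes were not tested against each other, and the interval of Scd1 (-0.96 to 1.14) overlaps those of the first 4. Without ad-lib library 3, Scd1 had 0.61 (unadjusted p = 0.278). Of 20 lipogenesis genes tested of 21 listed, 8 had higher values at an unadjusted p under 0.05 and 0 had lower ones, 19 had a positive log2 fold change, 4 did not overlap between diets, and the median was 0.82, against 0.00 over all genes. Over all genes tested, 0.901% were higher at that threshold and 10055 of 19977 had a positive value. All TAN libraries lay above all ad-lib libraries for 1.91%. Without ad-lib library 3 there were 12 higher with a median of 1.07, without ad-lib library 1 there were 4 with a median of 0.61, and without both there were 6 with a median of 0.89. In each case 0 were lower. Over all genes, 773 of 20635, 1300 of 20638 and 2202 of 21748 passed the unadjusted threshold in these fits. Of the 20 metabolic elasticity genes, a list that the study takes from earlier work and that shares 9 genes with this one, 4 were higher (Acly, Elovl6, Me1 and Slc2a5) and 1 (Lep) lower, with a median of 0.40. Without ad-lib library 3 there were 7 higher and 0 lower, and without library 1 there were 3 and 1.

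**Figure D4:**
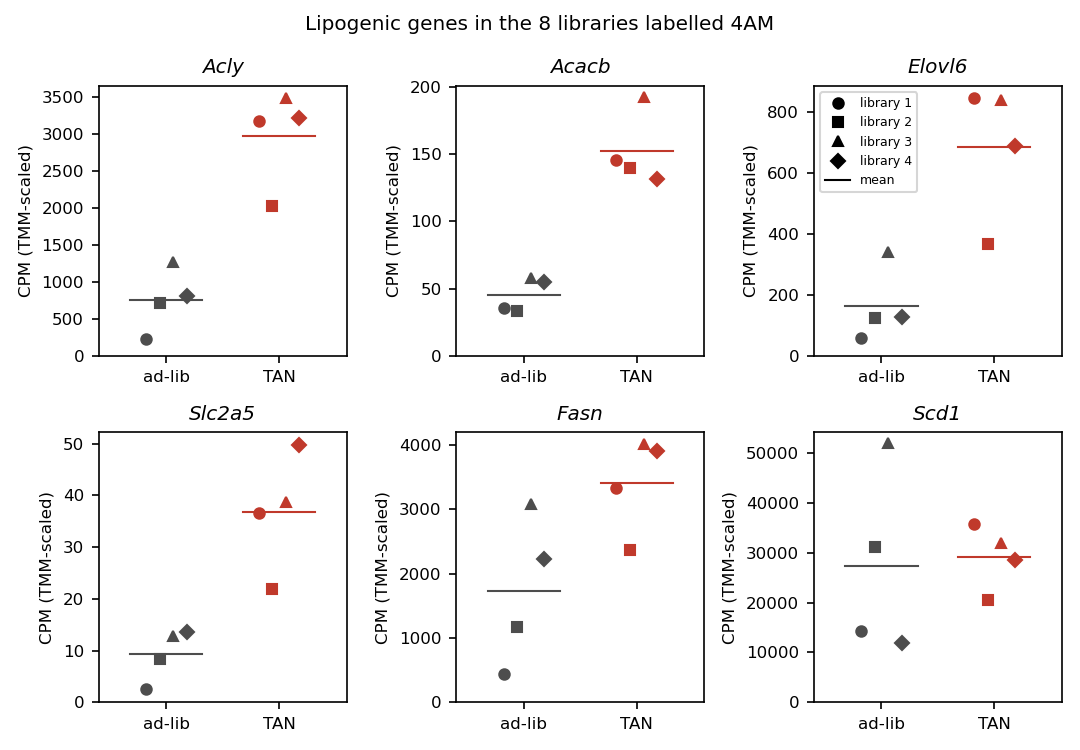
CPM of Acly, Acacb, Elovl6, Slc2a5, Fasn and Scd1 in the 8 libraries labelled 4AM, from 0; symbols are library numbers and lines group means. The TAN libraries lie above all ad-lib libraries for the first 4 genes and overlap them for Fasn and Scd1.

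**Figure D5:**
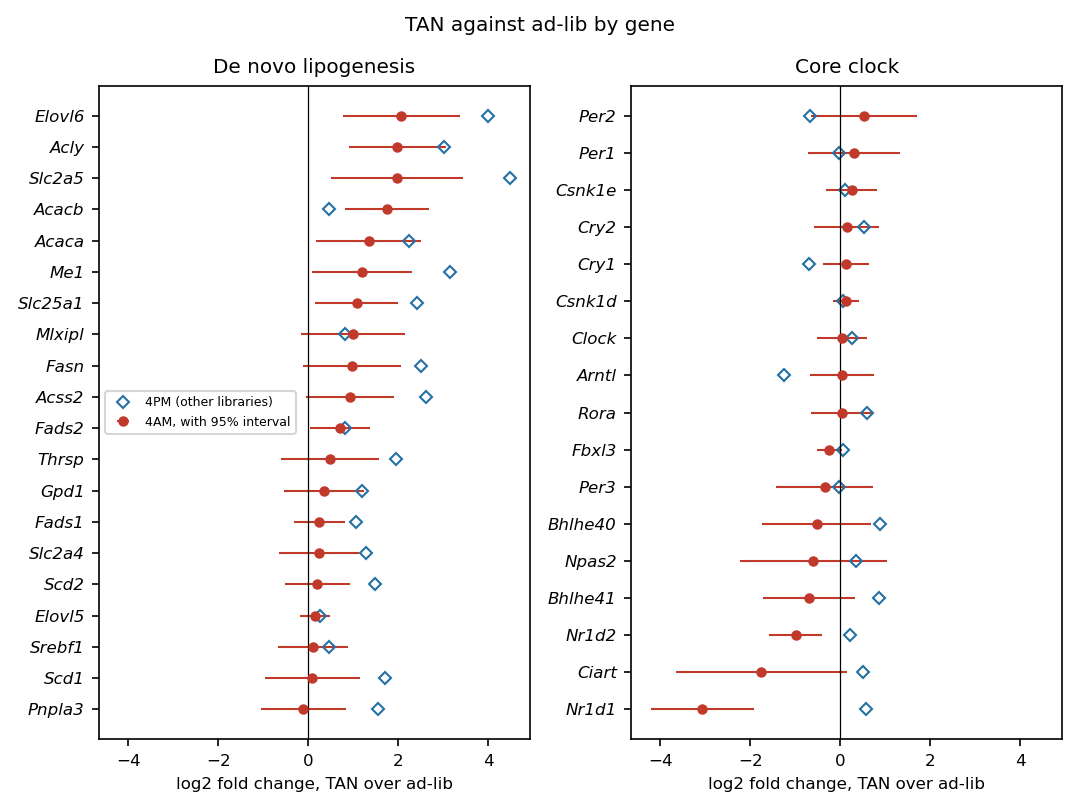
Log2 fold change of TAN over ad-lib at 4AM with its 95% interval for the 20 lipogenesis and 17 core clock genes tested, with the value at 4PM from other libraries as open diamonds. At 4AM the intervals of 8 lipogenesis genes, Nr1d1 and Nr1d2 leave out 0.

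Genes called in TAN libraries at midday had positive values here too. Over all genes tested, 10055 of 19977 had a positive log2 fold change at 4AM, and 0.901% were higher at an unadjusted p under 0.05. Of the 17 genes called higher in TAN libraries at 12PM, which share no library with 4AM, 17 had a positive log2 fold change at 4AM, between 0.24 and 2.07 with a median of 0.93, and 11 had an unadjusted p under 0.05. Besides Acly, Elovl6 and Slc2a5 they include Tkt, transketolase of the pentose phosphate pathway, at 439, 1019, 1226 and 1052 CPM in ad-lib and 2209.8, 1322, 2320.4 and 2039.7 CPM in TAN libraries, with no overlap (1.08, SE 0.37, unadjusted p = 0.00515). Pfkl, the liver-type phosphofructokinase of glycolysis, had 0.58 (SE 0.23, unadjusted p = 0.0146), and Eno1, enolase, 0.50 (SE 0.24, unadjusted p = 0.0426); without ad-lib library 1 they had 0.37 (unadjusted p = 0.116) and 0.37 (unadjusted p = 0.162). Pkm, pyruvate kinase, had the smallest of the 17 values, 0.24.

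The libraries labelled 4PM and 8PM gave another picture. Of 586 genes called higher at 4PM, 190 had a positive log2 fold change at 4AM (median -0.13), and of 1485 called lower, 439 had a negative one (median 0.19). At 8PM this held for 28 of 237 genes called higher (median -0.40) and for 268 of 1167 called lower (median 0.29). Over all genes tested, 10055 of 19977 were positive at 4AM, with a median of 0.00. The median absolute log2 fold change over all genes was 0.281 at 4AM, the lowest of the 6 time points, and 0.655 at 4PM, at a median SE of 0.485 and 0.487. B and T cell markers summed to between 872 and 1516 CPM in ad-lib and between 9.78 and 301 CPM in TAN libraries at 4PM, and their part in the difference between the time points was not tested. The difference of the TAN effect between 4AM and 4PM passed the adjusted threshold for 0 genes (0%; smallest adjusted p = 0.0508), and 5253 genes had an unadjusted p under 0.05, of which 2404 had the smaller effect at 4AM (12% of those tested). That count of calls turned on the processing: 168 genes had the larger and 240 the smaller effect at 4AM with RLE factors, and 1142 and 1031 without ad-lib library 1.

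Mitochondrial and proteasome genes were in that set. All 25 nuclear genes of the respiratory chain and ATP synthase were bounded within 2-fold at 4AM, with log2 fold changes between -0.21 and 0.13, a median of -0.07 and intervals between -0.78 and 0.72, and 0 of them had an unadjusted p under 0.05. At 4PM all 25 had higher values at an adjusted p under 0.05, without a limit on the fold change (median 1.17). Over all genes, 33.2% had an unadjusted p under 0.05 at 4PM. For 25 of 25 the difference between the time points had an unadjusted p under 0.05. Cox5a, a subunit of cytochrome c oxidase, had -0.21 (95% interval -0.71 to 0.29) at 4AM and 1.09 at 4PM. Of 19 TCA cycle and anaplerosis genes, 17 were bounded within 2-fold and 0 had an unadjusted p under 0.05, with a median of -0.01. Pcx, pyruvate carboxylase, had the largest value, 0.66 (95% interval -0.17 to 1.49), and 1.05 (unadjusted p = 0.0211) without ad-lib library 3. Of 20 fatty acid oxidation genes 16 were bounded and 0 passed the unadjusted threshold. Over all genes tested, 38.1% were bounded within 2-fold at 4AM.

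All 22 proteasome subunits had a negative log2 fold change at 4AM, with a median of -0.27, and all 22 were bounded within 2-fold. Over all genes tested, 10055 of 19977 had a positive value, and 38.1% were bounded within 2-fold. Of the 22 subunits, 4 were lower at an unadjusted p under 0.05: Psma1, Psma2, Psmc2 and Psmc3. Psmc2, an ATPase of the regulatory particle, was at 89.6, 116, 138 and 132 CPM in ad-lib and 83.6, 82.5, 86.9 and 87.6 CPM in TAN libraries, with no overlap (-0.48, SE 0.18, unadjusted p = 0.00958). Without ad-lib library 1 there were 8 such subunits, and without libraries 1 and 3 there were 11. Over all genes, 1300 of 20638 and 2202 of 21748 passed the unadjusted threshold in these fits, against 527 of 19977 with all libraries. At 4PM the 22 subunits had a median of 0.61, and 18 had an adjusted p under 0.05, without a limit on the fold change. All 22 cytosolic ribosomal protein genes were also negative at 4AM, with a median of -0.54, 0 past the unadjusted threshold and 1 bounded within 2-fold. Rps14 was at 1072, 1394, 472 and 2760.1 CPM in ad-lib and 785, 942, 823 and 821 CPM in TAN libraries, where ad-lib library 4 was the highest and library 3 the lowest. Summed B and T cell markers stood in the same order at both ends, at 9.74 CPM in ad-lib library 3 and 2249 CPM in library 4, against 1344 and 1087 CPM in libraries 1 and 2. The log2 fold change of Rps14 was -0.76 (unadjusted p = 0.0925), -0.80 (unadjusted p = 0.0134) with these markers as a covariate, and -0.22 without ad-lib library 4. Without ad-lib library 3, 773 of 20635 genes passed the unadjusted threshold over all genes. Among ribosomal protein genes 9 were then lower, with a median of -0.80, and without libraries 1 and 3 there were 18, with a median of -1.07. Genes of such families can share reads with pseudogenes, which makes single values uncertain.

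In glycolysis and pyruvate entry, 3 of 21 genes were higher (Pfkl, Pfkp and Eno1) and 1 was lower (Pfkm) at an unadjusted p under 0.05, with a median of 0.23. Without ad-lib library 1 there were 0 higher and 2 lower, with a median of 0.04, and without library 3 there were 4 higher and 0 lower. The 3 higher genes encode forms of the rate-setting phosphofructokinase and enolase. Pfkm, the muscle form, was at 15.3, 19.0, 221 and 12.7 CPM in ad-lib and 30.4, 16.2, 28.7 and 27.1 CPM in TAN libraries. Ad-lib library 3, the library with muscle markers, was the high one, and without it the log2 fold change turned from -1.39 to 0.71. Pygm, muscle glycogen phosphorylase, turned likewise from -3.62 to 1.77, and it was the only one of 12 glycogen genes past the unadjusted threshold. Ppp1r3b, which targets a phosphatase to glycogen, was at 14.2, 60.6, 26.6 and 53.1 CPM and 59.5, 39.6, 83.3 and 200.1 CPM (1.31, 95% interval -0.30 to 2.92), and Pygl, the liver form of the phosphorylase, had 0.66 (-0.14 to 1.46), and 1.05 (unadjusted p = 0.0167) without ad-lib library 3. The 4 skeletal muscle markers with an unadjusted p under 0.05 (Acta1, Myh1, Tnni2 and Myl1) were also lower only with ad-lib library 3 in the fit: the median of the 9 tested was -3.69 with it and 2.34 without it.

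A gene known to be induced by fasting had higher values in TAN libraries. Pdk4, the kinase that shuts off pyruvate dehydrogenase, was at 38.6, 92.3, 93.7 and 47.9 CPM in ad-lib and 212, 138, 177 and 108 CPM in TAN libraries, with no overlap. This gave a log2 fold change of 1.22 (SE 0.43, 95% interval 0.35 to 2.09, unadjusted p = 0.00708), and 1.02 to 1.41 with any 1 library left out. The other 14 of 15 genes listed as fasting-induced did not pass the unadjusted threshold, among them Txnip, an arrestin that slows glucose uptake (0.15, 95% interval -0.44 to 0.74), and Irs2, an insulin receptor substrate (-0.47, -1.19 to 0.25). The 15 ran from -3.57 to 1.22, with a median of 0.08. Without ad-lib library 3, 1 was higher and 2 were lower at that threshold. Without library 1, 2 were higher and 0 lower. The TAN libraries thus had higher values of lipogenic genes and of Pdk4.

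Fkbp5, a glucocorticoid receptor target, was at 37.2, 50.4, 23.4 and 40.8 CPM in ad-lib and 57.5, 71.6, 71.1 and 61.3 CPM in TAN libraries, with no overlap and a log2 fold change of 0.78 (SE 0.25, 95% interval 0.28 to 1.28, unadjusted p = 0.00288). It was 1 of 13 glucocorticoid targets past the unadjusted threshold; Zbtb16, another target, was at 17.4, 16.4, 52.9 and 3.76 CPM and 55.2, 44.8, 47.5 and 37.2 CPM (1.03, 95% interval -0.54 to 2.60), where ad-lib library 3 was as high as the TAN libraries; without it the value was 1.88 (unadjusted p = 0.0334). Over the day Fkbp5 was at 72.1 ± 16.6 CPM at 12AM and 37.9 ± 11.2 CPM at 4AM in ad-lib mice, and at 78.3 ± 24.1 CPM and 65.4 ± 7.07 CPM in TAN mice. Pdk4 in TAN mice was highest of its 6 time points at 4AM, at 159 ± 45.2 CPM.

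Some secreted products of fat had lower values in TAN libraries. Lep, which encodes leptin, was at 380.4, 1146, 1025 and 325 CPM in ad-lib and 331, 264, 202 and 357 CPM in TAN libraries. Ad-lib libraries 2 and 3 were high, and libraries 1 and 4 were within or near the TAN range (-1.32, SE 0.63, unadjusted p = 0.0412, and -1.57 to -1.02 with any 1 library left out, with an unadjusted p under 0.05 in 3 of these 8 fits). In TAN mice the level at 4AM, 288 ± 69.5 CPM, was the lowest of the 6 time points, and at 12AM it was 1335 ± 324 CPM. Rarres2, which encodes the adipokine chemerin, was at 126, 341, 266 and 213 CPM and 139, 143, 107 and 155 CPM (-0.80, SE 0.39, unadjusted p = 0.0485). Adipoq, which encodes adiponectin, had -0.05 (95% interval -1.02 to 0.92). Of 13 adipokines and receptors 2 were lower (Lep and Rarres2) and 0 higher, with a median of 0.06. Without ad-lib library 3 there were 0 lower, with Lep at -1.10 (unadjusted p = 0.106) and Rarres2 at -0.74 (unadjusted p = 0.0881), and Rarres2 kept an unadjusted p under 0.05 in 1 of the 8 fits with 1 library left out.

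Nnmt, a methyltransferase that consumes nicotinamide, was at 149, 358, 370.3 and 219 CPM in ad-lib and 136, 108, 114 and 153 CPM in TAN libraries (-1.10, SE 0.43, unadjusted p = 0.0144). It was the only one of 11 genes of NAD salvage and sirtuins past the unadjusted threshold, and 9 of the 11 were bounded within 2-fold; without ad-lib library 3 it had -0.92 (unadjusted p = 0.0503). Hmgcs1, an early enzyme of cholesterol synthesis, was at 119, 247, 593 and 205 CPM and 149.6, 145, 198 and 185 CPM (-0.78, SE 0.36, unadjusted p = 0.0379). Ad-lib library 3 was the high one, and without it the log2 fold change was -0.17. The other 22 of 23 cholesterol genes did not pass, 16 of the 23 were bounded within 2-fold, and the median was -0.12. Trib3, a pseudokinase induced by the integrated stress response, had -0.73 (SE 0.35, unadjusted p = 0.0463), 1 lower gene among 17 of the unfolded protein and integrated stress response, of which 12 were bounded. Without ad-lib library 1 there were 4 lower genes in that list. With all libraries, 38.1% of all genes tested were bounded within 2-fold, and 1.74% were lower at an unadjusted p under 0.05.

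Among beige and thermogenic genes, Ucp1 and Elovl3 were near the detection limit. Ucp1, the uncoupling protein of brown and beige adipocytes, had 0, 0, 0 and 6 counts in ad-lib libraries 1 to 4 and 11 to 45 counts in TAN libraries, which is 0.569 to 2.27 CPM. The TAN libraries were all above the ad-lib libraries (unadjusted p = 0.0403). Elovl3, which lengthens very long fatty acids in brown and beige fat, had 0 to 4 counts in ad-lib and 3 to 35 counts in TAN libraries (unadjusted p = 0.0299). No fold is given for these genes, since 3 ad-lib libraries of Ucp1 and 2 of Elovl3 had 0 counts. Cidea, a lipid droplet protein of beige adipocytes, was at 24.9, 70.7, 26.0 and 71.4 CPM and 99.9, 58.6, 112 and 95.3 CPM (0.92, SE 0.42, unadjusted p = 0.0317); the groups overlapped, and it was 0.70 (unadjusted p = 0.122) without ad-lib library 1 and 0.72 (unadjusted p = 0.113) without library 3. Ppargc1a, the coactivator PGC-1α, had -0.26 (95% interval -1.22 to 0.71). Of 17 beige and thermogenic genes 3 were higher and 0 lower, with a median of 0.05, and 0 passed without ad-lib library 1.

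Across all genes, 27 higher and 9 lower genes had an unadjusted p under 0.05, more than a 2-fold difference, at least 10 counts in each library of the higher group and no overlap. Of the higher ones with the smallest p, Acacb, Acly, Elovl6 and Tkt are described above. Acsm3, a mitochondrial medium-chain acyl-CoA synthetase, was at 22.3, 32.3, 15.9 and 14.1 CPM in ad-lib and 71.9, 47.1, 82.4 and 60.7 CPM in TAN libraries (1.63, SE 0.47, unadjusted p = 0.00134). Xrcc3, which acts in DNA repair by homologous recombination, was at 7.37, 5.32, 11.2 and 4.26 CPM and 14.7, 14.1, 13.9 and 15.0 CPM (1.03, SE 0.33, unadjusted p = 0.00292). Trmt9b had 1.05 (SE 0.32, unadjusted p = 0.00207), and AA914427, a locus whose biotype is still to be checked by experiment (TEC), 2.83 (SE 0.76, unadjusted p = 5.67e-04). All 4 kept an unadjusted p under 0.05 with any 1 library left out. They were picked by small p and lack of overlap in these same libraries, so this is not separate support.

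Thbd, which encodes the endothelial anticoagulant receptor thrombomodulin, was the most abundant of the 9 lower genes, at 113, 284, 361 and 107 CPM in ad-lib and 88.0, 79.0, 58.1 and 103 CPM in TAN libraries. Its log2 fold change was -1.40 (SE 0.54, unadjusted p = 0.0136), with ad-lib libraries 2 and 3 high and libraries 1 and 4 just above the TAN range. The vascular endothelial marker Pecam1 was on the other side, at 274, 189.6, 172 and 126 CPM and 293, 260.4, 239.8 and 226 CPM (0.42, SE 0.21, unadjusted p = 0.0484), and 0.38 (unadjusted p = 0.107) without ad-lib library 3. Nme4, a mitochondrial nucleoside diphosphate kinase, was at 5.41, 5.42, 4.79 and 4.89 CPM and 2.61, 2.69, 1.77 and 2.99 CPM (-1.03, SE 0.44, unadjusted p = 0.0255). Htra4, a serine protease, had -1.53 (SE 0.59). The other 6 lower genes, Gm28802, Gm4876, Hmgb1-ps1, 9030025P20Rik, Gm13669 and Prcd, had log2 fold changes between -1.92 and -1.06 and at most 25.7 CPM in any library. Of the 9, 7 lost the unadjusted threshold without ad-lib library 3, Thbd with -1.04 (unadjusted p = 0.0742), and 2 without library 1.

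In the other lists few genes passed the unadjusted threshold. None of 10 triglyceride synthesis, 9 lipoprotein lipase and fatty acid uptake, 13 mitochondrially encoded, 27 insulin and FoxO signalling, 11 adipocyte transcription factor, 16 immediate early, 13 heat shock, 18 antioxidant, 15 collagen and matrix or 12 type 2 immunity genes passed, with medians between -0.16 and 0.25, and 18 of the 27 insulin signalling and 17 of the 18 antioxidant genes were bounded within 2-fold. In each of these lists at most 2 genes passed without ad-lib library 3 and at most 1 without library 1. Without both libraries, 7 of the 27 insulin and FoxO genes were higher and 1 lower. In that fit 3 mitochondrially encoded genes were higher, 3 heat shock genes were lower, and at most 2 genes passed in the remaining lists. Over all genes, 2202 of 21748 passed in that fit. With all libraries, 38.1% of all genes tested were bounded within 2-fold. Of 15 lipolysis and lipid droplet genes, Cidea alone passed with all libraries. Pnpla2, the triglyceride lipase ATGL, was at 662, 1186, 1189 and 643 CPM in ad-lib and 1573, 1312, 1319.6 and 1312 CPM in TAN libraries, with no overlap but an interval that included 0 (0.58, -0.21 to 1.38), and Lipe, hormone-sensitive lipase, had 0.16 (-0.58 to 0.90). Of the 7 genes that the study lists for the phosphoinositide pathway, 2 were higher (Pfkl and Pfkp), and 0 without ad-lib library 1. Both encode phosphofructokinases and are also counted under glycolysis above. The study picked this pathway out on these libraries, so that its count is not independent evidence of a direction. Among cell type markers other than muscle, 3 of 5 brown adipocyte (Ucp1, Cidea and Elovl3), 1 of 7 endothelial (Pecam1) and 1 of 8 adipocyte markers (Lep, lower) passed, and 0 of those of adipose progenitors, macrophages, B and T cells, lymph node, mammary and skin epithelium, erythrocytes, mast cells and Schwann cells. The same 3 brown adipocyte markers were the only positive ones of the 5, and the lowest log2 fold change was -0.62. Without ad-lib library 1, 0 of the 5 passed, and without library 3, 1 passed.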

How the data were processed

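Poly-A RNA was primed with random hexamers and sequenced by the authors as paired-end Illumina reads; per the labels the kit could be directional or not. The authors deposited raw counts per gene and library, and FPKM as the mean of the 4 libraries of each group. The FPKM served only to check labels: its 12 columns followed the count groups of the same label. The submitters' processing notes name TopHat 1.3.3, DESeq2 1.20.0, limma and edgeR, and mm9, mm10 and GRCm38, without roles; 98.3% of genes carry the start and end of GENCODE M21 on GRCm38. The series calls the material a stromal vascular fraction, the study whole tissue.

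Counts were scaled by TMM and tested with edgeR 4.0.16 in R 4.3.3 (robust quasi-likelihood) in 1 model of 48 libraries in 12 groups, with genes kept by filterByExpr at a minimum count of 10 and p-values adjusted by Benjamini-Hochberg over all genes tested. log2 CPM used a prior count of 2. The fit was tested on simulated counts. The 42 lists (12 of markers) and the named genes were chosen with earlier results of these data known; some genes are not reported here, and 3 of them were taken out of the lists. Named were genes set for values per library, list members past the unadjusted threshold or else the one with the largest absolute log2 fold change, and the 10 non-overlapping genes of smallest p per direction. Alternatives were other filters, RLE factors, limma 3.58.1 voom, DESeq2 1.42.0, mitochondrial genes left out, a replicate block, marker covariates, a separate fit and libraries left out. Of the columns of sample values, 0 were left unused.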

Additional observations from a re-analysis of the deposited data

Results flagged for a closer look

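Single libraries stood far from the other 3 of their group in 9 of 90 groups examined, by the Dixon outlier test. Its chance rate of about 1 in 20 holds for independent values with a normal distribution. That cannot be assumed for CPM of related genes and marker sums, so no excess over chance is read from the 9. For ad-lib Ucp1 the flag follows from the 3 values of 0. In ad-lib libraries these were Dbp, at 69.1 CPM in library 1, Ucp1, at 0.272 CPM in library 4 with the other 3 at 0, and the skeletal muscle markers, at 6563 CPM in library 3. Among TAN libraries they were Pnpla2, at 1573 CPM, Txnip, at 1880 CPM, and the endothelial markers, at 741 CPM, all high in library 1; Pfkl, at 76.8 CPM, and the brown adipocyte markers, at 114 CPM, both low in library 2; and Ucp1, at 2.27 CPM and high in library 3.

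The TAN effect on Nr1d1 at 4AM differed from its mean effect at the other 5 time points by -3.55 on the log2 scale, with an adjusted p of 0.0175 by edgeR's test of that difference.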

How the results depend on the processing

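Of the 93 genes that the naming rule took, 51 had an unadjusted p under 0.05, and 15 of these kept it with any 1 library left out; over 957 pairs of such a gene and an alternative, 737 kept direction and side of the threshold, 208 lost the threshold and 12 changed sign. Nr1d1 was the 1 lower gene called with at least 10 counts in every library, with RLE factors, with the B and T cell marker covariate and without ad-lib library 2 or 4, and with that covariate 1 gene was called higher. In the separate edgeR fit of the 8 libraries Nr1d1 had an unadjusted p of 0.00388 and an adjusted p of 0.969. By limma voom its log2 fold change was -2.20 (unadjusted p = 0.0128, adjusted p = 0.972). DESeq2 called 1 gene higher and 3 lower, which were Nr1d1 (adjusted p = 1.50e-05) and 3 genes of very few counts in most libraries. With libraries left out in turn the called lower genes numbered between 0 and 1.

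With more than a 2-fold difference at an unadjusted p under 0.05 there were 120 genes higher and 112 lower. These counts were 552 and 353 of 33438 genes tested with no filter on low counts, and 21 and 43 of 11196 with at least 10 counts in every library. They were 213 and 56 of 19977 with the B and T cell marker covariate, and 54 lower with the muscle marker covariate. With limma voom they were 345 and 47 of 19977, and the median of all genes moved to 0.117. With libraries left out in turn they ran from 115 to 382 higher and from 62 to 183 lower: 382 and 179 without ad-lib library 1, 218 and 62 without library 3, 123 and 183 without library 4. Without both ad-lib libraries 1 and 3, an alternative chosen after seeing the data, they were 784 and 195 of 21748. Genes bounded within 2-fold numbered 4753 of 21748 in that fit and 12623 of 33438 with no filter. Why these counts moved was not tested.

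The difference between 4AM and 4PM was called for 308 genes with the larger and 416 with the smaller TAN effect at 4AM with at least 10 counts in every library, 168 and 240 with RLE factors, 301 and 237 with the muscle marker covariate, 1460 and 395 with limma voom, 979 and 751 with DESeq2 and 640 and 695 without both ad-lib libraries; with 1 library left out they ran from 0 to 1142 and from 0 to 1031, the highest without ad-lib library 1. Against the other 5 time points, 0 genes had the smaller effect at 4AM with the B and T cell covariate and with limma voom, from 0 to 1 with 1 library left out, 2 without both ad-lib libraries and 5 with DESeq2, which also called 5 with the larger effect. The separate fit of the 8 libraries gives no such difference.

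With 1 library left out, the log2 fold changes of muscle genes ran from -1.75 to 0.71 for Pfkm, -4.21 to 1.77 for Pygm, -4.75 to 2.34 for Acta1, -8.08 to 3.49 for Myh1, -5.34 to 1.69 for Tnni2 and -2.56 to 0.73 for Myl1, each reversed without ad-lib library 3, and without both ad-lib libraries to 0.69, 1.90, 2.67, 3.49, 1.66 and 0.75.

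The replicate numbers did not pair the libraries: over 5000 genes the residuals of same-numbered TAN and ad-lib libraries at 4AM correlated by -0.0979, -0.0458, 0.0328 and 0.275, and with the replicate number as a block 0 genes were called, with 117 higher and 73 lower at the unadjusted threshold.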
